A study of Mus musculus with 16 samples.

Results

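The genes described here encode the proteasome, its immunoproteasome variants, and the caps, inhibitor, and chaperones that go with it. They were chosen by their names, with earlier results of these data known, as the rows of the deposited count table whose symbol begins with Psm, a letter from a to g, and a number. This rule found 50 of the 24421 rows. Of these, 49 had more than 10 counts in at least 4 of the 16 libraries and were among the 14565 genes tested. The member that was not tested was Psmb11, the catalytic subunit of the thymus proteasome, which had at most 1 count in any library. By role, the tested genes are 8 core alpha subunits, 7 constitutive core beta subunits, 6 immunoproteasome genes, 6 ATPases and 14 other genes of the regulatory particle, and 7 further activators, inhibitors, and core chaperones. The last gene, Psmc3ip, is a meiotic recombination factor that carries the name but is no subunit.

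The libraries were made from CD11b+ cells of the brain of female C57BL/6J mice, cells that were held on a magnetic column and are largely microglia, the resident macrophages of the brain. From weaning, CON mice (n = 4) were fed standard chow, while MAL mice (n = 5) and MAL-BG mice (n = 7) were fed an isocaloric diet low in protein and fat for about a month. MAL-BG mice were also gavaged repeatedly with a mix of commensal E. coli and Bacteroidales, and CON and MAL mice with buffer. The labels name cortical tissue as the source and the methods whole cerebra, and CD11b is shared by neutrophils, monocytes, and border macrophages, so the cells are an enrichment and not a pure population.

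Total counts ranged from 10312703 to 13461574 per library in CON, from 10864121 to 12819982 in MAL, and from 14191791 to 18705202 in MAL-BG. Replicate numbers are the running numbers of the deposited columns. The microglial markers, such as P2ry12 and Tmem119, were present in every group, with a summed level of 16300 to 26800 CPM (counts scaled to a common library size) in CON, 16800 to 29100 in MAL, and 35600 to 48500 in MAL-BG. Choroid plexus markers summed to 13800 to 53700 CPM in CON, 6420 to 42200 in MAL, and 1760 to 16400 in MAL-BG. CON replicate 1 and MAL replicate 4 held the most microglial and, with 13800 and 6420 CPM, the least choroid plexus signal of their groups. In bulk samples of this kind, fewer cells of a type and less RNA per cell cannot be told apart.

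The proteasome is the barrel-shaped protease that degrades ubiquitin-tagged proteins in the cytosol and nucleus. Rings of alpha subunits gate the barrel, rings of beta subunits hold the active sites, and a regulatory particle on the end binds ubiquitin, unfolds the substrate with its ATPases, and feeds it in. In immune cells and after interferon signaling, the catalytic subunits Psmb5, Psmb6, and Psmb7 are replaced by Psmb8, Psmb9, and Psmb10, and the cap made of Psme1 and Psme2 can take the place of the regulatory particle. These changes alter which peptides are made for transport by Tap1 and Tap2 and display on MHC class I. Myeloid cells such as microglia express both forms.

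Psmb9 and Psmb8 lie beside the transporter genes in the MHC region. On GRCm38, Psmb9 occupies chr17:34181987-34187764 on the minus strand, Tap1 chr17:34187553-34197225 on the plus strand, Psmb8 chr17:34197721-34201454 on the plus strand, and Tap2 chr17:34203527-34216321 on the plus strand. By these GENCODE loci, the 4 genes span 34335 bases, and Psmb9 and Tap1 start 211 bases apart with overlapping first exons on opposite strands. Psme1 and Psme2 are neighbors as well, at chr14:55578123-55581529 and chr14:55587441-55591113, with 5911 bases between them.

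As a description, the 250 bases before each gene's start in RefSeq (GRCm38.p6) were searched on both strands for 4 known motifs. The matches that bear on the catalytic subunits and on interferon signaling are shown. The table held 45 windows for 42 of the 50 genes. The gamma-activated site (TTCNNNGAA), a motif of interferon signaling, was in 2 of 45 windows (4.44%) against 7.02% of all 32851 windows. The interferon-stimulated response element (GAAANNGAAA), bound by Irf factors, was in 3 of 45 (6.67%) against 2.98%. The core of the antioxidant response element (TGACNNNGC), bound by Nfe2l1 and Nfe2l2, was in 5 of 45 (11.1%) against 10.2%, and the CCAAT box (CCAAT) in 15 of 45 (33.3%) against 33.8%. None of these motifs overlaps another in the sites printed. Capitals mark the match, and each line gives 30 bases on the strand of the gene, 5′ to 3′.
Psmb8, gamma-activated site, chr17:34198088-34198117, plus strand: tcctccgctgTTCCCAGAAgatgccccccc
Psmg1, gamma-activated site, chr16:95991181-95991210, minus strand: actcatgTTCTCTGAAtccgcttgcagtca
Psmb3, interferon-stimulated response element, chr11:97703261-97703290, plus strand: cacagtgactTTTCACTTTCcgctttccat
Psmd4, interferon-stimulated response element, chr3:95042675-95042704, minus strand: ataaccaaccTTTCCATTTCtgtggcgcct
Psmd9, interferon-stimulated response element, chr5:123228021-123228050, plus strand: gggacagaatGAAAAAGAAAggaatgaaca
Psmb5, antioxidant response element core, chr14:54618023-54618052, minus strand: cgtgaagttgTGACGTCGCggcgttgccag
Psmb6, antioxidant response element core, chr11:70525327-70525356, plus strand: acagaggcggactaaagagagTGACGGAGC

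Among the immunoproteasome genes, the window of Psmb8 held the gamma-activated site, and those of Psmb9, Psmb10, Psme1, and Psme2 held neither interferon motif. Psmb3, Psmd4, and Psmd9, whose windows held the interferon-stimulated response element, belong to the constitutive core and the regulatory particle. The sites of Psmb8 and Psmd9 lie within the GENCODE span of their own gene, the first 97 bases before a RefSeq start. The others lie outside it on the upstream side. The window of Psmb9 lies within chr17:34187281-34187580, inside the GENCODE span of Psmb9. Its RefSeq start therefore differs from the GENCODE start that gave the distance to Tap1. A match is a run of letters and no evidence of binding, and the absence of one says only that these letters are not in this window.

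A part of the proteasome genes rose in MAL-BG. Against CON, 12 of 49 were differentially expressed genes (DEGs), which pass 2 thresholds in edgeR's quasi-likelihood test, an adjusted p of 0.05 and a log2 fold change of 0.58 in either direction, with higher expression, where 11.4% of all genes tested were, and 0 were DEGs with lower expression, where 21.7% of all genes were. With the adjusted p alone, 29 of 49 were higher and 0 lower, against 19.8% and 25.2% of all genes. The log2 fold change was above 0 for 43 of 49 genes, with a median of 0.32, while the median of all genes was -0.04. The 12 DEGs were Psme2b, Psmb9, Psme2, Psmb10, and Psmb8 of the immunoproteasome, the core chaperones Psmg3, Psmg2, and Psmg1, the regulatory particle genes Psmd13, Psmd1, and Psmd7, and the core alpha subunit Psma6.

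Against MAL, which received the same diet without the bacteria, 11 of 49 were DEGs with higher expression (10.2% of all genes) and 0 were DEGs with lower expression (20.2%). With the adjusted p alone, 31 were higher and 1, Psme4, was lower (20.2% and 24.1% of all genes). The median log2 fold change was 0.35, and that of all genes -0.03. Both comparisons use the same MAL-BG libraries and are not independent of each other. Psmd10 was a DEG against MAL and not against CON, and Psmb8 and Psmd1 were DEGs against CON and not against MAL, while all 3 had an adjusted p under 0.05 in both. These 3 lay near the fold threshold, and the difference between the comparisons was not tested. Against MAL, Psmd1 became a DEG in 9 of 22 alternatives and Psmb8 in 3, and Psmd10 was no DEG in 3.

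The calls depended on the scale of the libraries and on offsets for transcript length and GC content. Members had a median transcript length of 1430 bases, against 3002 for all genes tested. One alternative set such offsets within each library and also scaled the libraries by their mean log2 CPM. With both, 15 members were DEGs with higher expression against CON (24.1% of all genes) and 14 against MAL (22.4%), and 61.2% of all DEGs against CON were higher in place of 34.4%. Its 2 steps were then run singly, as alternatives added after seeing the data. With the scaling alone, 28 and 27 members were called higher (25.2% and 24% of all genes), where the log2 fold changes of all genes had medians of 0.25 and 0.24.

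With the offsets alone, 3 members were DEGs with higher expression against CON and 4 against MAL. These were 6.12% and 8.16% of the members, against 10.4% and 9.39% of all genes, so the share of members was below that of all genes. Psme2b, Psmg3, and Psmg2 remained DEGs in both comparisons, and Psmd13 against MAL. Members with a log2 fold change above 0 numbered 31 of 49 in each comparison, in place of 43 against CON and 44 against MAL. By adjusted p alone, 16 members (32.7%) were higher and 3 lower in each comparison, where 19.2% and 19.3% of all genes were higher. The share of all genes lower by adjusted p in this setting is not reported here. With TMM scaling and no offsets it was 25.2% against CON and 24.1% against MAL. With the offsets alone, 0 members were DEGs with lower expression, where 3092 and 2846 of all genes were. The members lower by adjusted p included Psmc4 against CON, at -0.231 (edgeR, adjusted p = 0.0315). Against MAL they included Psme1, at -0.254 (adjusted p = 0.0287), and Psmg4, at -0.312 (adjusted p = 0.031). Of the immunoproteasome genes, with Psme2 and its near-copy Psme2b counted apart, 5 of 6 were still higher by adjusted p against CON and 4 against MAL. Of the constitutive beta subunits, 0 of 7 were higher in either. Relative to the median of all genes, the members' median against CON was 0.36 in the fit with TMM scaling and 0.12 with the offsets alone. For the immunoproteasome genes this distance was 0.77 and 0.46, and for the constitutive beta subunits 0.34 and 0.02. Unless another setting is named, the values that follow are from the fit with TMM scaling and no offsets.

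No member passed a threshold in MAL versus CON. In edgeR, 0 of 49 genes passed either threshold, 0 had an unadjusted p under 0.05 (212 of the 14565 genes tested had), and DESeq2 called 0 as well. The log2 fold changes lay between -0.16 and 0.32, with a median of -0.02, and the lowest adjusted p was 0.999.

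**Figure D1:**
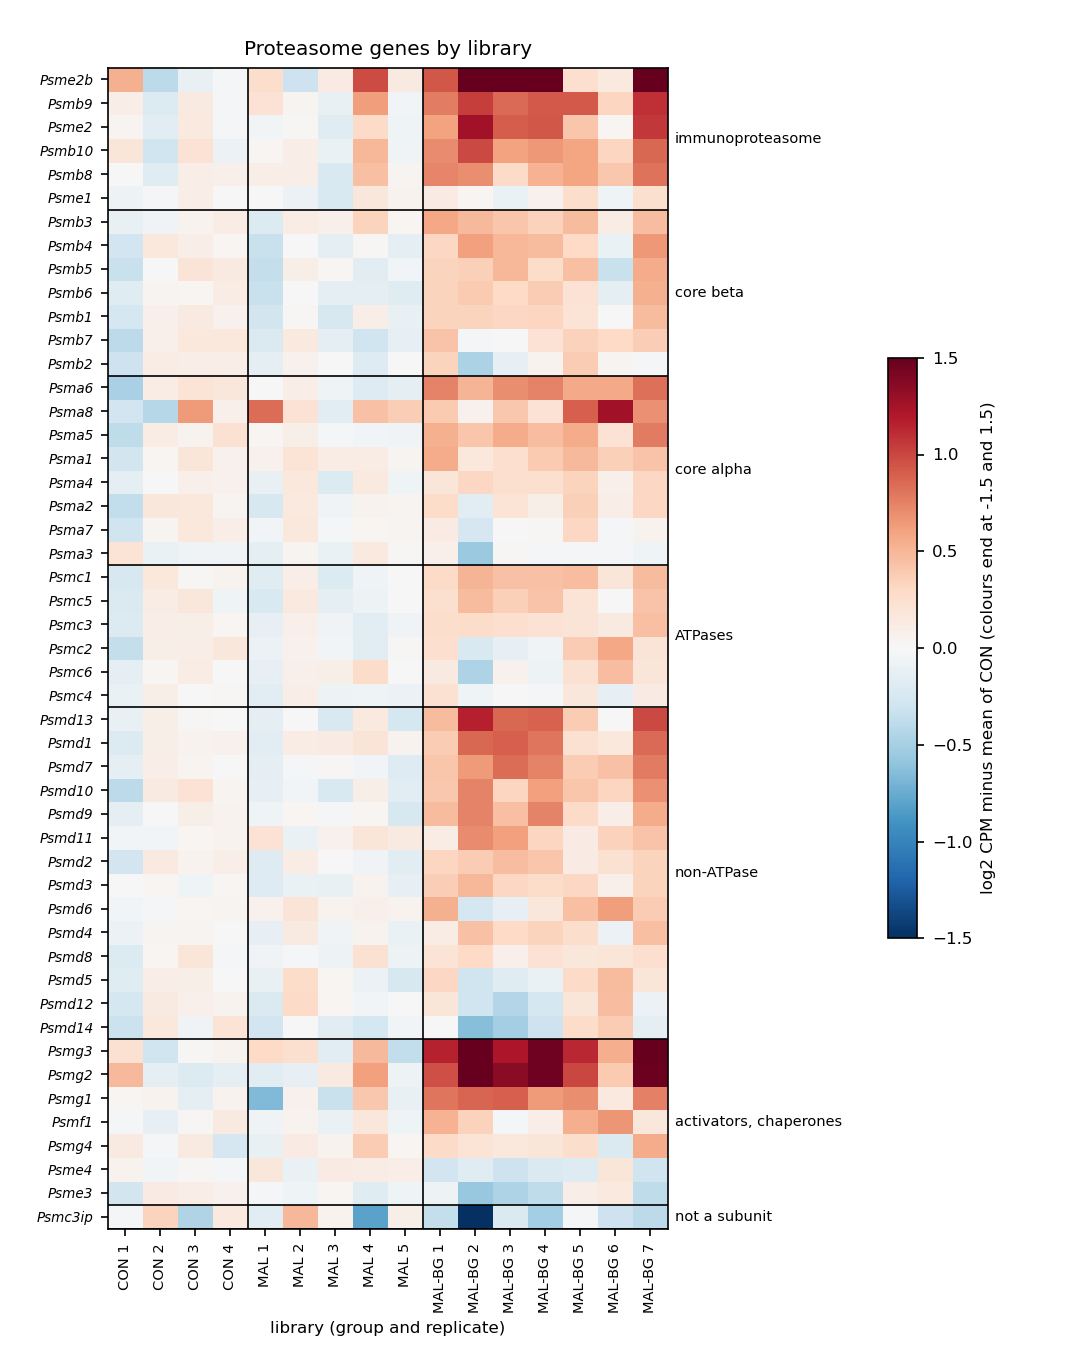
Expression of the 49 tested genes (rows, by subgroup) in each of the 16 libraries (columns), as log2 CPM minus the mean of the 4 CON libraries, from blue (lower) to red (higher). Red is densest in the MAL-BG columns for the immunoproteasome and chaperone genes, MAL replicate 4 is also red for several of them, and Psme1 and Psmc4 are pale throughout.

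**Figure D2:**
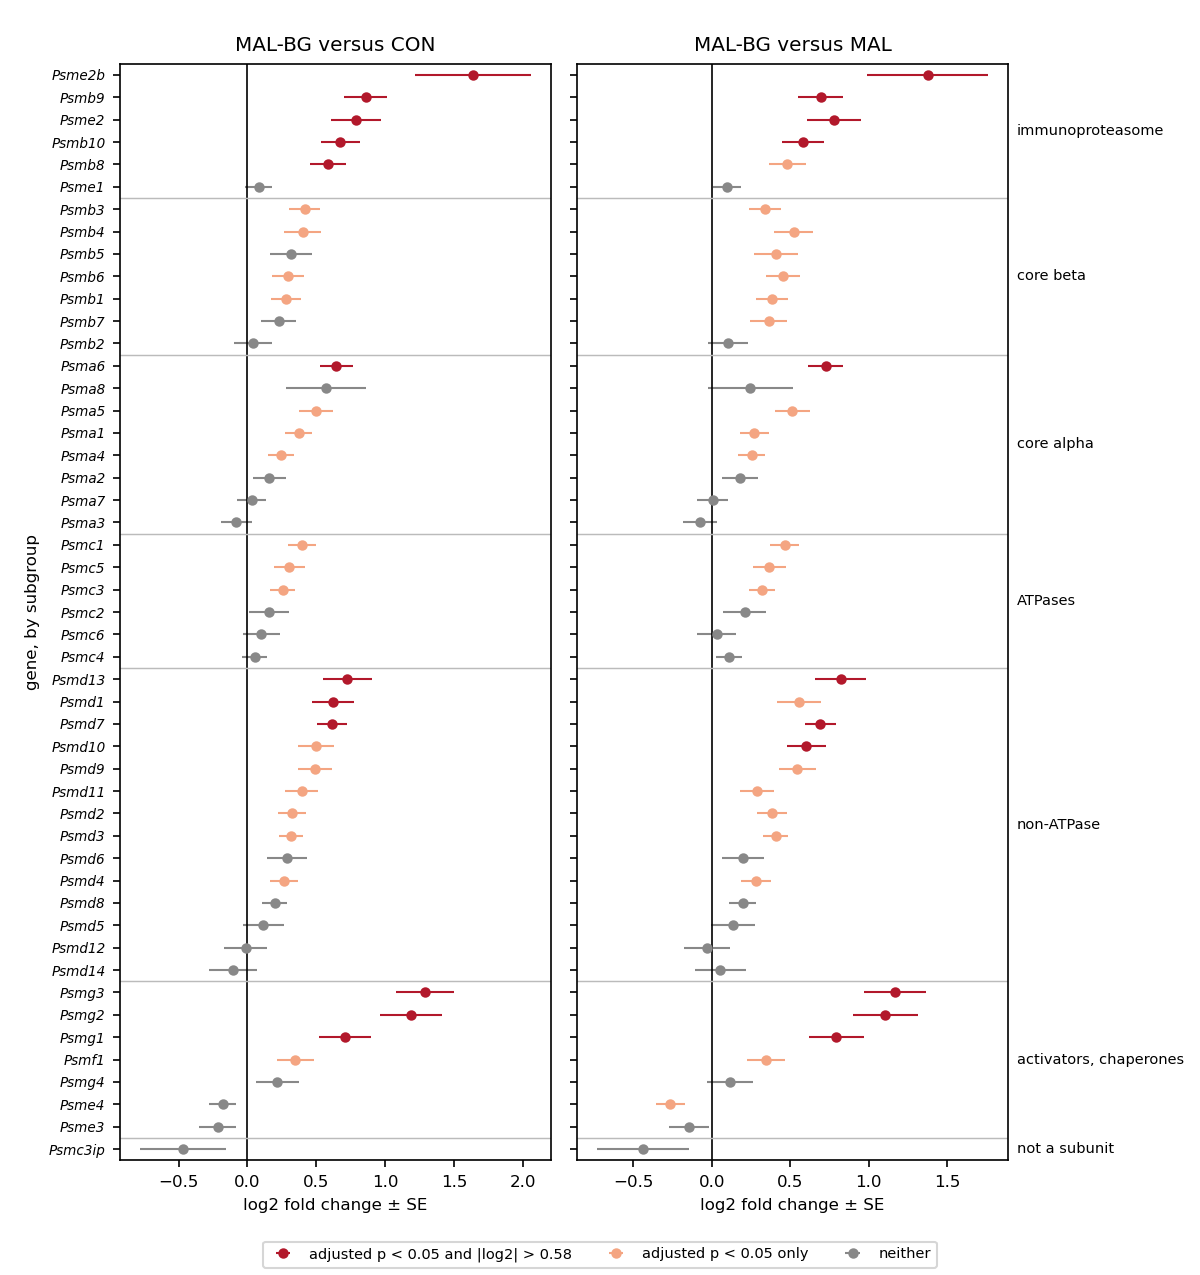
Log2 fold change (points) with its standard error (bars) for each gene in MAL-BG versus CON (left) and MAL-BG versus MAL (right), by subgroup. Dark red marks DEGs, light red genes with an adjusted p under 0.05 only, and gray the rest; in both panels Psme2b, Psmg3, and Psmg2 lie farthest to the right.

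The inducible catalytic subunits rose in MAL-BG. Psmb9, which replaces Psmb6, had 43.3, 35.0, 44.1, and 39.5 CPM in CON replicates 1 to 4 and 46.8, 41.5, 37.3, 62.3, and 39.2 in MAL replicates 1 to 5. In MAL-BG, Psmb9 ranged from 50.6 to 86.2 CPM, with a median of 76.3. Every MAL-BG library exceeded every CON library, and the MAL library at 62.3 CPM, replicate 4, was above the lowest MAL-BG library, replicate 6. The log2 fold change of Psmb9 was 0.86 ± 0.16 (SE) against CON (edgeR, adjusted p = 0.000455) and 0.69 ± 0.14 against MAL (adjusted p = 0.0012).

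Psmb10, which replaces Psmb7, had 90.8, 65.1, 92.9, and 75.4 CPM in CON and 81.9, 85.9, 74.7, 113, and 77.1 in MAL. Its MAL-BG values ranged from 101 to 159 CPM, with a median of 126, so only MAL replicate 4 reached into the MAL-BG range. On the log2 scale, Psmb10 rose by 0.67 ± 0.14 against CON (edgeR, adjusted p = 0.00145) and 0.58 ± 0.13 against MAL (adjusted p = 0.00249). The second value sits on the fold threshold, and Psmb10 was no DEG against MAL in 10 of 22 alternatives, 5 of which leave out a single library (MAL replicates 1, 2, 3, and 5 and MAL-BG replicate 2, with log2 fold changes of 0.53 to 0.58).

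Psmb8, which replaces Psmb5, had 115, 102, 123, and 121 CPM in CON and 123, 123, 97.7, 156, and 118 in MAL. In MAL-BG it ranged from 139.9 to 202 CPM, with a median of 173. Again every MAL-BG library exceeded every CON library, and MAL replicate 4 was above the lowest MAL-BG libraries, replicates 3 and 6. Psmb8 rose, on the log2 scale, by 0.58 ± 0.13 against CON (edgeR, adjusted p = 0.00173) and 0.48 ± 0.12 against MAL (adjusted p = 0.00389). The first value sits on the fold threshold, and Psmb8 was no DEG against CON in 6 of 21 alternatives. These were upper-quartile scaling (0.56), a filter at 1 CPM (0.57), a fit of the 2 groups alone (0.57), the offsets alone (0.345), and the fits without CON replicate 2 (0.53) or MAL-BG replicate 5 (0.56). Against MAL it passed the threshold without MAL replicate 4 (0.58). With the offsets alone, Psmb9 and Psmb10 were also short of it against CON, at 0.57 and 0.41 (edgeR, adjusted p = 0.00143 and 0.00829).

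MAL replicate 4, the MAL library that overlapped MAL-BG for these 3 genes, also had the highest microglial marker sum of the 9 CON and MAL libraries, 29100 CPM. MAL-BG replicate 6, the lowest MAL-BG library for Psmb9 and Psmb10, had a microglial sum of 41400 CPM, within the MAL-BG range. Against CON, 7 of 10 microglial markers were higher and 0 lower by adjusted p, 8 of 8 choroid plexus markers were lower, 10 of 11 neutrophil markers were higher, and 4 of 8 tested lymphocyte markers were higher. Of all genes tested, 19.8% were higher and 25.2% lower by adjusted p in this comparison, the shares to set beside each marker count given here. Neutrophil marker sums were 485 to 1230 CPM in CON, 521 to 1090 in MAL, and 591 to 13600 in MAL-BG, the highest in MAL-BG replicate 5. Lymphocyte marker sums were 45.5 to 71.9 CPM in CON, 50.5 to 76.6 in MAL, and 102 to 221 in MAL-BG. No marker of these 4 lists was at 0 in all libraries, and Ly6g was not analysed here. Monocyte marker sums were 1250 to 1820 CPM in CON and 380 to 1530 in MAL-BG, with 4 of 8 markers lower and 0 higher, and border macrophage sums 193 to 568 and 186 to 294, with 1 of 6 lower and 0 higher. Neuron marker sums were 37 to 202 CPM in CON, 63.7 to 165 in MAL, and 15.3 to 62 in MAL-BG, with 7 of 8 markers lower against CON. Astrocyte sums were 233 to 444, 260 to 421, and 128 to 201 CPM in the same order, with 4 of 6 lower. Oligodendrocyte sums were 348 to 982, 498 to 835, and 405 to 1140 CPM, with 3 of 6 higher. Endothelial and mural sums were 453 to 1850, 482 to 1250, and 936 to 3290 CPM, with 2 of 8 higher and 1 lower. Of 5 erythroid markers, the 4 hemoglobin genes were at 0 in all libraries, and the fifth, Alas2, was higher. Their part in the rise of the inducible subunits was not tested. Without MAL-BG replicate 5, 11 of 12 members were still DEGs against CON, all but Psmb8. Without CON replicate 1 and MAL replicate 4 together, an alternative added after seeing the data, all 12 were. They made up 24.5% of the members, against 17.4% of all genes. The median of the immunoproteasome genes was then 0.84 against CON and 0.81 against MAL. Both libraries held the most microglial signal of their groups, and MAL replicate 4 overlapped MAL-BG, so this fit is no independent check of the calls.

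The constitutive catalytic subunits had smaller fold changes, a difference that was not tested. Psmb6 had 80.7, 94.8, 93.8, and 99.0 CPM in CON, 72.5, 91.6, 83.5, 83.4, and 81.2 in MAL, and 82.8 to 133 in MAL-BG, with a median of 116. It rose by adjusted p but not by fold, with a log2 fold change of 0.30 ± 0.11 against CON (edgeR, adjusted p = 0.0436) and 0.45 ± 0.11 against MAL (adjusted p = 0.00283). Except for replicate 6, each MAL-BG library exceeded the 9 others. The call of Psmb6 against CON was lost in 9 of 21 alternatives, including each of the 4 that left out a CON library, with an adjusted p of up to 0.117 when 1 library was left out. With the offsets alone its value against CON was -0.07. Of the 29 members higher by adjusted p against CON, 20 kept that call in every alternative other than the offsets alone, and 14 with those as well. Psmb1, Psma4, Psmd4, and Psmf1 lost it, as Psmb6 did, in 8 to 11 of 21.

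Psmb5 had 35.7, 45.3, 51.5, and 49.4 CPM in CON, 35.0, 48.0, 46.0, 40.1, and 43.7 in MAL, and 35.8 to 66.1 in MAL-BG, with a median of 57.9. MAL-BG replicate 6 held the lowest value, apart from the other MAL-BG libraries, whose lowest value was 54.7. The log2 fold change of 0.32 ± 0.15 against CON did not pass (edgeR, adjusted p = 0.0981), and that of 0.41 ± 0.14 against MAL did (adjusted p = 0.0261). Psmb5 shares 65.0% of its 42-base stretches, the read length, with other annotated genes, mostly the pseudogene Gm3375, so reads may have been split or lost in counting.

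Psmb7 had 57.0, 78.8, 83.6, and 83.8 CPM in CON, 64.5, 82.6, 68.4, 60.8, and 68.6 in MAL, and 74.1 to 100.4 in MAL-BG, with a median of 92.2. The groups overlapped, with log2 fold changes of 0.23 ± 0.13 against CON (edgeR, adjusted p = 0.153) and 0.36 ± 0.12 against MAL (adjusted p = 0.0199).

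Of all 7 constitutive beta subunits, 4 were higher by adjusted p against CON and 6 against MAL, with 0 DEGs and median log2 fold changes of 0.30 and 0.38. By adjusted p these are 57.1% and 85.7% of the subunits, against 19.8% and 20.2% of all genes. With the offsets alone the median against CON was -0.03. The largest rise against CON was in Psmb3, 0.42 ± 0.11 (edgeR, adjusted p = 0.00618), and the smallest value in Psmb2, 0.04 ± 0.14 (adjusted p = 0.83). Psmb2 lay between 39.9 and 71.9 CPM in MAL-BG, around the 44.5 to 59.7 of CON, and its value was -0.30 with the offsets alone.

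**Figure D3:**
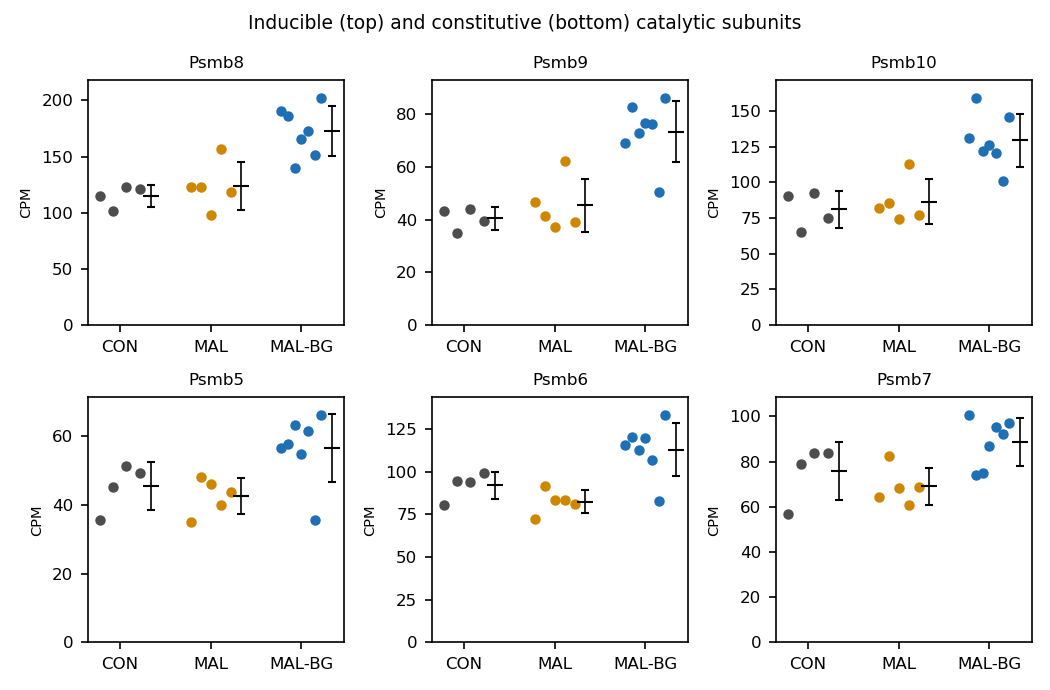
CPM of Psmb8, Psmb9, and Psmb10 (top) and Psmb5, Psmb6, and Psmb7 (bottom), 1 point per library in replicate order, with the group mean and SD beside the points. In the top row the MAL-BG points lie above all CON points and 1 MAL point stands high, while in the bottom row MAL-BG and the other groups overlap.

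Each inducible subunit was set against the subunit it replaces, with CPM divided by transcript length in kilobases. The ratio of Psmb9 to Psmb6 was 0.262 ± 0.0444 (SD, n = 4) in CON, 0.328 ± 0.0794 (n = 5) in MAL, and 0.383 ± 0.0242 (n = 7) in MAL-BG. The MAL-BG range, from 0.352 to 0.422, did not overlap the CON range, from 0.218 to 0.317. MAL spanned 0.264 to 0.441, with replicate 1 at 0.381, within the MAL-BG range, and replicate 4 at 0.441, above it. The ratio of Psmb10 to Psmb7 was 0.98 ± 0.306 for CON mice, 1.13 ± 0.3 for MAL mice, and 1.32 ± 0.302 for MAL-BG mice. For Psmb8 to Psmb5 it was, in the same order, 1.42 ± 0.239, 1.63 ± 0.403, and 1.73 ± 0.34. These last ratios overlapped between all groups. Per length, Psmb9 was thus below Psmb6 in every library, while the means of Psmb8 were above those of Psmb5 in every group. Of their 42-base stretches, Psmb5 shares 65%, Psmb7 29.5% (mostly with Nek6), and Psmb6 6.08% with other genes. For Psmb8, Psmb9, and Psmb10 these shares are 6.81%, 13%, and 0%. Reads may thus have been lost unequally, so the level of 1 gene relative to another is uncertain. The ratios are a description and were not tested.

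**Figure D4:**
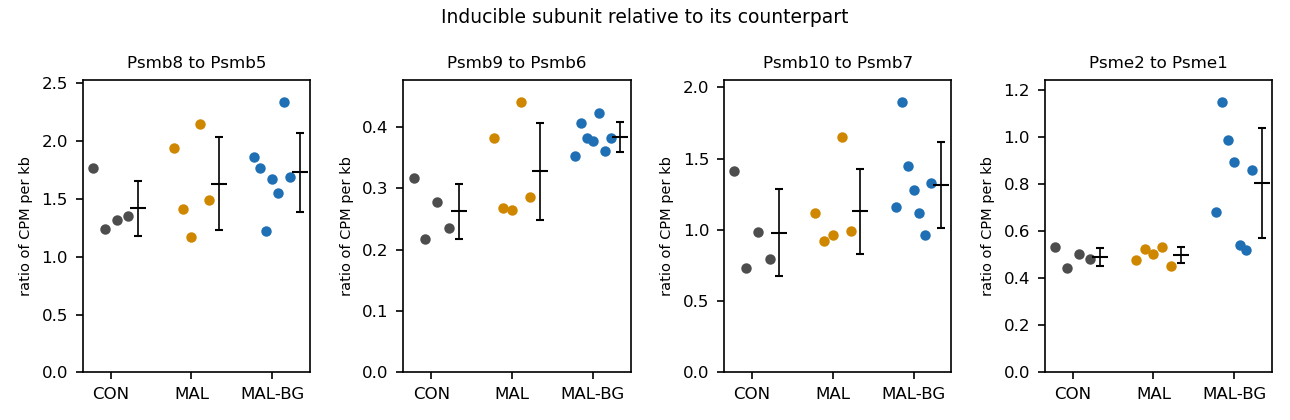
Ratio of CPM per kilobase of transcript for each inducible subunit and its counterpart, and for Psme2 and Psme1, 1 point per library, with the group mean and SD beside the points. The MAL-BG points lie above all CON points for Psmb9 to Psmb6, overlap CON for Psmb8 to Psmb5 and Psmb10 to Psmb7, and spread from 0.519 to 1.15 for Psme2 to Psme1.

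Of the cap of the immunoproteasome, Psme2 rose and its partner Psme1 did not pass the test. Psme2 had 65.6, 56.6, 70.3, and 62.5 CPM in CON, 61.6, 64.5, 56.2, 77.7, and 61.0 in MAL, and 64.8 to 152 in MAL-BG, with a median of 119. Apart from replicate 6, each MAL-BG library exceeded the 9 others. The log2 fold change of Psme2 was 0.79 ± 0.18 against CON (edgeR, adjusted p = 0.00263) and 0.78 ± 0.17 against MAL (adjusted p = 0.00175).

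Psme1 had 142, 148, 161, and 150.4 CPM in CON, 149.6, 142, 128, 169, and 155 in MAL, and 139.6 to 180.5 in MAL-BG, with a median of 157. The 3 groups overlapped throughout. Its log2 fold change was 0.08 ± 0.098 against CON (edgeR, adjusted p = 0.51) and 0.10 ± 0.091 against MAL (adjusted p = 0.395). With the offsets alone, Psme1 was at -0.229 against CON (edgeR, adjusted p = 0.058) and at -0.254 against MAL (adjusted p = 0.0287). Per length, the ratio of Psme2 to Psme1 was 0.49 ± 0.0381 (SD, n = 4) in CON, 0.499 ± 0.0329 (n = 5) in MAL, and 0.805 ± 0.234 (n = 7) in MAL-BG, whose libraries ran from 0.519 in replicate 6 to 1.15 in replicate 2.

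Psme2b, a near-copy of Psme2 in a single exon at chr11:48945354-48946190 (GRCm38), had the largest fold change of all members. It had 25.0, 13.2, 16, and 17 CPM in CON and 20.8, 13.9, 18.9, 34.2, and 18.9 in MAL. The MAL-BG values were 33.1, 101, 78.0, 72.4, 20.6, 19.2, and 63.8 CPM for replicates 1 to 7. Replicates 2, 3, 4, and 7 exceeded all 9 CON and MAL values, and replicates 1, 5, and 6 were not. Its log2 fold change was 1.64 ± 0.42 against CON (edgeR, adjusted p = 0.00526) and 1.38 ± 0.39 against MAL (adjusted p = 0.0086). Psme2 shares 62.2% of its 42-base stretches with other genes, chiefly Psme2b, and Psme2b 72.6% of its own, so counts of this pair are uncertain, and the exon of Psme2b also overlaps 9930111J21Rik1 on the same strand. The counts and medians of the 6 immunoproteasome genes hold this pair as separate members.

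The core alpha subunits, which form the gate of the barrel, had 1 DEG and 4 of 8 higher by adjusted p in each comparison, with median log2 fold changes of 0.31 against CON and 0.25 against MAL. The DEG is 12.5% of the subunits, close to the 11.4% and 10.2% of all genes, and those higher by adjusted p are 50%, against 19.8% and 20.2%. The DEG was Psma6, which had 43.5, 65.9, 70.1, and 68.2 CPM in CON, 61.0, 65.0, 58.2, 53.3, and 55.4 in MAL, and 87.0 to 108 in MAL-BG, with a median of 98.4. Each MAL-BG library exceeded the 9 CON and MAL libraries. Psma6 rose by a log2 fold change of 0.65 ± 0.12 against CON (edgeR, adjusted p = 0.000573) and 0.72 ± 0.11 against MAL (adjusted p = 0.000151). Without CON replicate 1, the lowest library, it was 0.51 against CON, still with an adjusted p of 0.000621.

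Psma5 (0.50 ± 0.12), Psma1 (0.37 ± 0.099), and Psma4 (0.24 ± 0.092) were higher against CON by adjusted p alone, in edgeR at 0.00397, 0.0064, and 0.0412. Psma3 had the smallest value of the alpha ring, with a log2 fold change of -0.08 ± 0.12 against CON (edgeR, adjusted p = 0.592), and 28.5 to 44.1 CPM in MAL-BG around the 39.0 to 48.5 of CON. Its sign turned without MAL-BG replicate 2, the lowest library (0.04). Reads of Psmb3, Psma5, and Psma4 may also have been split in counting, since 61.2%, 59.9%, and 37% of their 42-base stretches occur in other genes, mostly pseudogenes. Psma8, the subunit that replaces Psma7 in the testis, was counted at 2.13 to 7.19 CPM over all libraries, against 67.2 to 103 CPM for Psma7.

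Among the ATPases, the motor of the regulatory particle, 3 of 6 (50%) were higher by adjusted p in each comparison, against 19.8% and 20.2% of all genes, and 0 were DEGs, where 11.4% and 10.2% of all genes were. Psmc1 rose the most against CON. It had 68.4, 90.3, 81.3, and 83.9 CPM in CON, 71.2, 86.5, 69.8, 77.7, and 80.6 in MAL, and 91.0 to 115 in MAL-BG, with a median of 109.5. The MAL-BG range did not overlap the others, and the rise on the log2 scale was 0.40 ± 0.099 against CON (edgeR, adjusted p = 0.00412) and 0.46 ± 0.092 against MAL (adjusted p = 0.00088). Psmc5 and Psmc3 also rose, by 0.30 ± 0.11 and 0.25 ± 0.09 on the log2 scale against CON (edgeR, adjusted p = 0.0339 and 0.0289). The smallest value was that of Psmc4, 0.05 ± 0.089 (adjusted p = 0.662), with 66.6 to 85.3 CPM in MAL-BG and 67.6 to 77.3 in CON.

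The 14 other genes of the regulatory particle had 3 DEGs (21.4%) and 9 higher by adjusted p (64.3%) in each comparison, against 11.4% and 19.8% of all genes versus CON, with median log2 fold changes of 0.32 against CON and 0.34 against MAL. The largest rise was in Psmd13, a subunit of the lid. Psmd13 had 67.3, 77.0, 73.1, and 72.8 CPM in CON, 65.5, 72.1, 61.7, 80.3, and 60.4 in MAL, and 72.7 to 162 in MAL-BG, with a median of 132. Replicate 6 lay within the CON range, and the 6 other MAL-BG libraries exceeded the 9 libraries of the other groups. Its rise on the log2 scale was 0.73 ± 0.18 against CON (edgeR, adjusted p = 0.00337) and 0.82 ± 0.16 against MAL (adjusted p = 0.000912). Psmd13 overlaps Sirt3 on the opposite strand, and 16.5% of its 42-base stretches are shared with other genes.

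Psmd7, a lid subunit that pairs with the deubiquitinase Psmd14, had 56.1, 66.4, 63.8, and 62.5 CPM in CON, 56.6, 60.6, 62.8, 60.5, and 54.1 in MAL, and 80.6 to 111 in MAL-BG, with a median of 96.8. No MAL-BG library overlapped the others. Its log2 fold change was 0.61 ± 0.11 against CON (edgeR, adjusted p = 0.000312) and 0.69 ± 0.099 against MAL (adjusted p = 7.93e-05, the lowest of all members in that comparison). Psmd14, which removes ubiquitin from substrates, had 33.1, 46.0, 39.8, and 47.8 CPM in CON, 33.7, 41.4, 36.7, 34.3, and 40.0 in MAL, and 26.5 to 53.8 in MAL-BG, with a median of 37.5. Its MAL-BG libraries spread to both sides of the other groups, and its log2 fold change was -0.11 ± 0.18 against CON (edgeR, adjusted p = 0.647) and 0.06 ± 0.17 against MAL (adjusted p = 0.802), with a sign that turned when single MAL-BG libraries were left out.

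Psmd1, the large scaffold of the base, had 103, 126, 123, and 124 CPM in CON and 105, 128, 129, 135, and 123 in MAL. The MAL-BG values were 154, 215, 221, 206, 138, 132, and 213 CPM for replicates 1 to 7, so replicate 6 fell among the MAL libraries. Its log2 fold change was 0.62 ± 0.15 against CON (edgeR, adjusted p = 0.00352) and 0.56 ± 0.14 against MAL (adjusted p = 0.00437). Against CON, Psmd1 and Psmd7 fell short of the fold threshold without CON replicate 1 (0.56 and 0.57) or without MAL-BG replicate 3 (0.57 and 0.57).

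The chaperones that assemble the regulatory particle are Psmd5, Psmd9, and Psmd10. Psmd10, also known as gankyrin, had 14.4, 20.9, 22.0, and 19.5 CPM in CON, 17.4, 18.5, 16.2, 20.1, and 17 in MAL, and 23.8 to 31.9 in MAL-BG, with a median of 25.4. Psmd9 had 27.5 to 43.2 CPM in MAL-BG, and no more than 27.3 in CON and 26.2 in MAL. For both genes the MAL-BG range lay above the others without overlap. The log2 fold changes against MAL were 0.60 ± 0.12 for Psmd10 (edgeR, adjusted p = 0.00113) and 0.55 ± 0.12 for Psmd9 (adjusted p = 0.00141). Psmd5 did not pass, at 0.12 ± 0.15 against CON (adjusted p = 0.552).

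In all, the 7 MAL-BG libraries lay above the 9 others without overlap for 8 of 49 members, against 6.17% of all genes tested, and below them for 0 (6.36% of all genes). They were Psma6, Psmc1, Psmc3, Psmd3, Psmd7, Psmd9, Psmd10, and Psmg3. Psmb8, Psmb9, Psmb10, and Psme2 were not among them, since MAL replicate 4, MAL-BG replicate 6, or both lay in the range of another group.

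The core chaperones held the largest changes outside the immunoproteasome. With the other caps and the inhibitor they make 7 genes, of which 3 (42.9%) were DEGs with higher expression in each comparison, against 11.4% and 10.2% of all genes. Psmg1 and Psmg2 form a dimer that builds the alpha ring, and Psmg3 and Psmg4 form a second dimer that acts beside it. Psmg3 had 14.2, 9.74, 12.2, and 12.5 CPM in CON, 14.9, 14.3, 10.7, 17, and 9.32 in MAL, and 17.6 to 39.5 in MAL-BG, with a median of 28.2. Its MAL-BG range did not overlap the others. The log2 fold change of Psmg3 was 1.29 ± 0.21 against CON (edgeR, adjusted p = 0.000235) and 1.17 ± 0.20 against MAL (adjusted p = 0.00026). The annotation places Gm26938 over an exon of Psmg3 on the same strand, and 23.4% of the gene's 42-base stretches are shared.

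Psmg4, its partner, had 10.7, 9.55, 10.7, and 8.18 CPM in CON, 9.02, 10.6, 10.1, 12.7, and 9.95 in MAL, and 8.38 to 14.3 in MAL-BG, with a median of 11.3. The groups overlapped, with log2 fold changes of 0.22 ± 0.16 against CON (edgeR, adjusted p = 0.273) and 0.12 ± 0.14 against MAL (adjusted p = 0.533). Per length, the ratio of Psmg3 to Psmg4 was 0.788 ± 0.14 (SD, n = 4) in CON, 0.796 ± 0.175 (n = 5) in MAL, and 1.63 ± 0.256 (n = 7) in MAL-BG. The lowest MAL-BG library, at 1.32, was above the highest of the others, a MAL library at 1.04.

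Psmg2 had 22.9, 14.8, 14.1, and 14.7 CPM in CON, 14.6, 14.9, 17.9, 25.1, and 15.4 in MAL, and 21.4 to 46.6 in MAL-BG, with a median of 42. CON replicate 1 and MAL replicate 4 were above the lowest MAL-BG library, replicate 6, and below the rest. Psmg1 had 10.8, 10.9, 9.62, and 11.0 CPM in CON, 6.64, 11.0, 8.35, 14, and 9.79 in MAL, and 11.7 to 19.8 in MAL-BG, with a median of 18.0. The log2 fold changes against CON were 1.19 ± 0.22 for Psmg2 (edgeR, adjusted p = 0.000608) and 0.71 ± 0.19 for Psmg1 (adjusted p = 0.00583), and against MAL 1.11 ± 0.21 (adjusted p = 0.000575) and 0.79 ± 0.17 (adjusted p = 0.0018).

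The other caps had fold changes below 0. Psme3, the nuclear activator, had 56.1, 74.0, 72.7, and 71.0 CPM in CON, 66.5, 65.0, 69.6, 59.9, and 65.2 in MAL, and 45.9 to 75.1 in MAL-BG, with a median of 52.4. Its log2 fold change was -0.22 ± 0.14 against CON (edgeR, adjusted p = 0.205) and -0.15 ± 0.13 against MAL (adjusted p = 0.362). Psme4, a large activator linked to histone degradation, had 78.6, 74.0, 76.8, and 74.2 CPM in CON, 85.6, 70.9, 82.7, 82.0, and 81.1 in MAL, and 60.9 to 86.2 in MAL-BG, with a median of 65.4. Replicate 6 was the highest of all 16 libraries, and the 6 other MAL-BG libraries were lower than each of the 9 CON and MAL libraries. On the log2 scale Psme4 was at -0.18 ± 0.098 against CON (edgeR, adjusted p = 0.147) and fell by 0.26 ± 0.091 against MAL (adjusted p = 0.0278). The call against MAL was lost in 14 of 22 alternatives. With the offsets and the mean log2 CPM scaling together both values turned positive, at 0.32 (adjusted p = 0.0343) against CON and 0.26 (adjusted p = 0.0639) against MAL. With the scaling alone they were 0.12 and 0.0065.

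Psmf1, an inhibitor of the core, rose by adjusted p alone, by 0.35 ± 0.13 on the log2 scale against CON and 0.35 ± 0.12 against MAL (edgeR, adjusted p = 0.0415 and 0.0307). Its MAL-BG values of 24.6 to 39.9 CPM overlapped the 23.1 to 28.3 of the other groups. Psmc3ip, the gene that is no subunit, had 0.843 to 4.4 CPM over all libraries and a log2 fold change of -0.47 ± 0.31 against CON (edgeR, adjusted p = 0.23).

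**Figure D5:**
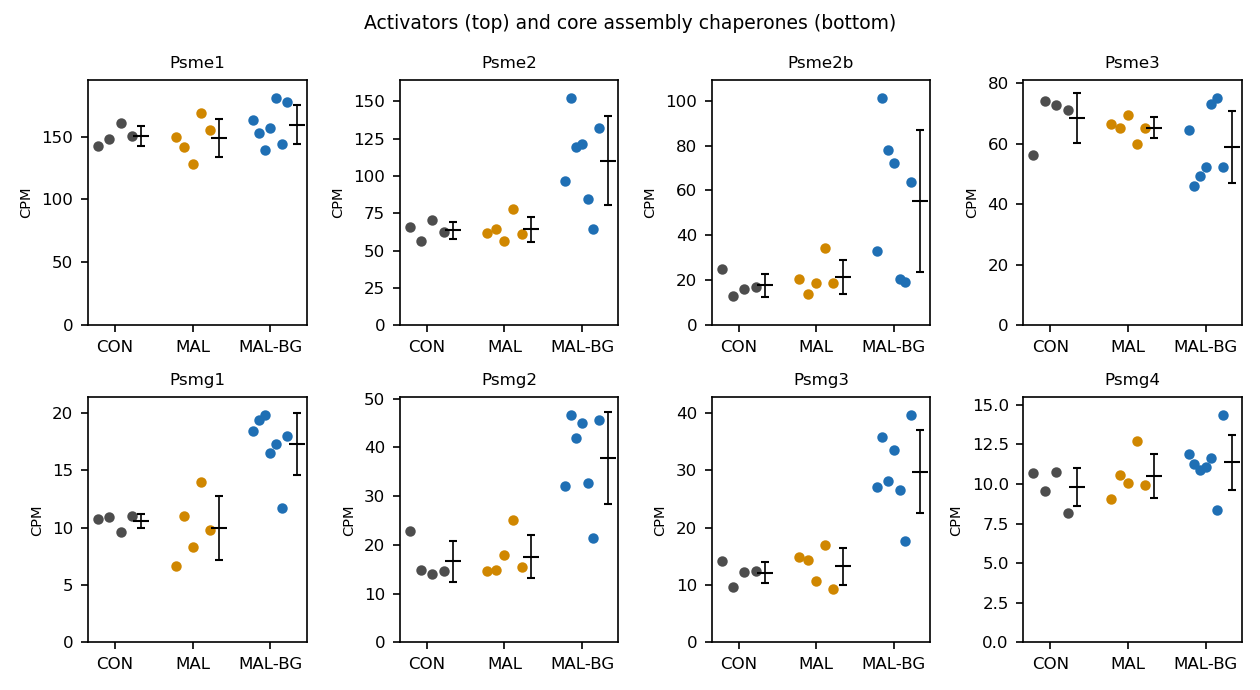
CPM of the activators Psme1, Psme2, Psme2b, and Psme3 (top) and the core chaperones Psmg1 to Psmg4 (bottom), 1 point per library in replicate order, with the group mean and SD beside the points. Psme1 and Psmg4 lie at like levels in the 3 groups, their partners Psme2 and Psmg3 are higher in MAL-BG, and the MAL-BG points of Psme2b spread from 19.2 to 101 CPM.

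The MAL-BG libraries were not alike for every member. Replicates 2, 3, 4, and 7 had the 4 highest MAL-BG values of Psme2b, Psme2, Psmd1, Psmd7, and Psmd13, and the 4 lowest of Psmd12, Psmd14, and Psme3. For Psmd12 these were 39.8, 36.0, 40.7, and 46.2 CPM, against 55.6, 55.6, and 67.5 in replicates 1, 5, and 6. For Psmd13 they were 162, 132, 134, and 144 CPM, against 101, 94.5, and 72.7. The sample titles carry a letter, A or B, that could not be tied to a column, and the study's own code for these data holds a batch term. Whether this division of the libraries follows a batch was not tested, and all calls rest on a model without batch.

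Genes outside the family were read from lists of the pathway. Of 17 tested partners and assembly factors, 5 were higher and 3 lower against CON by adjusted p, where 19.8% and 25.2% of all genes were, with 1 DEG higher and 2 lower (11.4% and 21.7% of all genes). Akirin2, which carries the proteasome into the nucleus, rose by 0.76 ± 0.13 on the log2 scale (edgeR, adjusted p = 0.000311), and Pomp, the maturation factor of the core, by 0.55 ± 0.16 (adjusted p = 0.0112). Shfm1, a small lid subunit, rose by 0.54 ± 0.16 (adjusted p = 0.013), and the ubiquitin receptor Adrm1 by 0.33 ± 0.1 (adjusted p = 0.016). Ddi2, the protease that activates Nfe2l1, fell by 2.31 ± 0.34 (adjusted p = 0.000103), from 16.6 to 18.7 CPM in CON to 1.31 to 7.37 in MAL-BG. Zfand5, a ubiquitin-binding activator of the proteasome, fell by 1.09 ± 0.16 (adjusted p = 0.000114). Paaf1 was not analysed here.

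Of 9 genes for ubiquitin and its handling, 3 were higher and 1 lower against CON by adjusted p, where 19.8% and 25.2% of all genes were. Ufd1l and Nploc4, the cofactors with which Vcp draws out ubiquitin-tagged proteins, were among those higher, by 0.25 ± 0.094 and 0.26 ± 0.089 on the log2 scale (edgeR, adjusted p = 0.0372 and 0.0258). Ubb, which encodes ubiquitin, was the gene that fell against CON, by 0.66 ± 0.18 on the log2 scale (edgeR, adjusted p = 0.00647) and by 0.61 ± 0.17 against MAL (adjusted p = 0.00711). Against MAL, 4 were higher and 2 lower, where 20.2% and 24.1% of all genes were. The other gene lower was Uba6, a ubiquitin-activating enzyme, which fell by 0.76 ± 0.29 (edgeR, adjusted p = 0.0421). The 4 higher were Rps27a, which encodes ubiquitin fused to a ribosomal protein (0.48 ± 0.13, adjusted p = 0.00623), Vcp, Ufd1l, and Nploc4.

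Among 10 transcription factors known to act on proteasome genes, 1 was higher and 2 were lower against CON by adjusted p, against 19.8% and 25.2% of all genes. Irf1, an activator of immunoproteasome genes, fell by 1.20 ± 0.17 on the log2 scale against CON (edgeR, adjusted p = 7.36e-05) and by 1.13 ± 0.16 against MAL (adjusted p = 7.78e-05). It had 250.1 to 405 CPM in CON, 206 to 406 in MAL, and 102 to 167 in MAL-BG, with no overlap. Nlrc5, an activator of MHC class I genes, fell by 0.70 ± 0.16 against CON (adjusted p = 0.00194) and by 0.93 ± 0.15 against MAL (adjusted p = 0.000167). Nfe2l1, which drives the constitutive genes when the proteasome is impaired, did not pass, at -0.29 ± 0.20 (adjusted p = 0.247). Nfyb, a subunit of the factor that binds the CCAAT box, rose by 0.49 ± 0.13 (adjusted p = 0.00531).

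Of the 7 genes for peptide transport and loading, 4 were DEGs with higher expression in each comparison, where 11.4% and 10.2% of all genes were, and 0 were lower. Tap1, which starts beside Psmb9, had 58.6 to 92.0 CPM in CON and 80.5 to 188 in MAL-BG, and rose by 0.90 ± 0.20 on the log2 scale against CON (edgeR, adjusted p = 0.00212). Tap2 rose by 1.27 ± 0.25 (adjusted p = 0.000809), the loading factor Tapbp by 1.24 ± 0.18 (adjusted p = 9.97e-05), and the MHC class I heavy chain H2-D1 by 0.70 ± 0.21 (adjusted p = 0.0123). B2m, H2-K1, and Erap1 did not pass, with log2 fold changes of 0.31 ± 0.20, 0.31 ± 0.18, and 0.24 ± 0.14 (adjusted p = 0.223, 0.18, and 0.189). Psmb9 and Tap1 overlap on opposite strands, with 13% of the 42-base stretches of Psmb9 shared with Tap1 or other genes, and the strand option of the counting is not given in the sources used here.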

How the data were processed

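RNA-Seq of CD11b+ brain cells covered 16 mice with a library each (CON, n = 4; MAL, n = 5; MAL-BG, n = 7). The authors aligned stranded, paired 42-base reads with STAR (GRCm38.p6), took read counts per gene from HTSeq, and deposited raw counts. The HTSeq version is 2.5 in the submitters' processing notes, and the paper's methods give a different one. The annotation, counting mode, and strand option are not given in the sources used here. Groups were read from column names, whose running numbers match no sample title. Within-group pairs of libraries (37) differed by more than counting noise (lowest chi-square per degree of freedom 9.57).

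The 14565 genes that exceeded 10 counts in 4 or more libraries were scaled by TMM and fitted together for the 3 groups by edgeR 4.0.16 (quasi-likelihood, R 4.3.3). The Benjamini-Hochberg adjustment covered all genes of a comparison. DEGs passed 0.05 for the adjusted p and 0.58 for the log2 fold change in either direction. Standard errors come from the same fit, and log2 CPM used a prior count of 2. Precision rests on how much the mice of a group differed. The steps were tested on simulated data.

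Some genes of the pathway lists are not reported here. The members and the pathway and marker lists were chosen with earlier results of these data known. Named genes were, by rule, the immunoproteasome genes, Psmb5, Psmb6, Psmb7, the members with the largest and smallest change of each other subgroup, and those lower by adjusted p (20 genes). The other DEGs and the remaining genes named were added after their values were seen. Lengths, loci, and shared 42-base stretches come from GENCODE M21 (GRCm38), 1 representative transcript per gene, and promoter windows from RefSeq (GRCm38.p6). Alternatives were other scalings, DESeq2 1.42.0, other filters, no fold threshold, 2-group fits, offsets for length and GC content (known for 96.3% of genes), and each library left out. No batch term was fitted: the study's code holds one, but the letter A or B in the sample titles could not be tied to a column, so all calls rest on a model without batch. The steps of the length and GC alternative run singly, and the fit without CON replicate 1 and MAL replicate 4, were chosen after seeing the data.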

Additional observations from a re-analysis of the deposited data

Results flagged for a closer look

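Of 78 combinations of a named gene and a group, 12 held a library far from the rest of its group by Dixon's criterion, which chance gives in about 1 of 20 groups. CON replicate 1 made up 6 of them. It was low for Psme3 (56.1 CPM, others 71.0 to 74.0), Psmb2 (44.5 CPM, others 59.4 to 59.7), Psma6 (43.5 CPM, others 65.9 to 70.1), and Psmd1 (103 CPM, others 123 to 126), and high for Psma3 (48.5 CPM, others 39.0 to 40.5). It was also high for Psmg2 (22.9 CPM, others 14.1 to 14.8). Members took 0.27% of the counts of this library, the lowest share of all 16, against 0.333% to 0.352% in the other CON libraries.

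MAL-BG replicate 6 was low for Psmb5 (35.8 CPM, others 54.7 to 66.1) and Psmg1 (11.7 CPM, others 16.5 to 19.8) and high for Psme4 (86.2 CPM, others 60.9 to 66.7). MAL-BG replicate 2 was low for Psma3 (28.5 CPM, others 40.2 to 44.1). MAL replicate 4 was high for Psmb10 (113 CPM, others 74.7 to 85.9), and CON replicate 3 was low for Psmg1 (9.62 CPM, others 10.8 to 11.0).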

How the results depend on the processing

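No member was a DEG with lower expression, and none was a DEG in MAL versus CON, under any alternative. The number of members called higher stayed within 1.5 times of 12 against CON and of 11 against MAL, with 3 exceptions. Without the fold threshold it was 29 and 31, with 1 lower against MAL, with scaling by mean log2 CPM alone 28 and 27, and with offsets for length and GC content alone 3 and 4. With each library left out, the counts ranged from 9 to 13 against CON and from 9 to 14 against MAL. The share of all genes moved as well. Against CON, 18.4% of members were higher without CON replicate 1 (14.3% of all genes) and 26.5% without CON replicate 3 (10.3%). Against MAL, 18.4% were higher without MAL replicate 3 (8.85% of all genes) and 28.6% without MAL-BG replicate 6 (12.1%). DESeq2 called 12 in both comparisons (24.5% of members, against 12.6% and 11.9% of all genes). Signs turned as well, for single members that were no DEGs but in part, such as Psme4 against MAL, had passed the adjusted p. The turns listed here are from a part of the members only. With the offsets alone, 31 of 49 members were above 0 in each comparison, in place of 43 against CON and 44 against MAL. With the offsets and the scaling together, Psmb2 was at -0.000439, Psma3 at 0.085, and Psme4 at 0.32 against CON, and Psma3 at 0.13, Psme3 at 0.038, Psmg4 at -0.049, and Psme4 at 0.26 against MAL. With the scaling alone, Psmd14 was at 0.204, Psme3 at 0.0884, Psma3 at 0.2, and Psme4 at 0.117 against CON, and Psme3 at 0.126, Psma3 at 0.187, and Psme4 at 0.00645 against MAL. With the offsets alone, Psme1 was at -0.229, Psmb5 at -0.0314, Psmb6 at -0.0731, Psmb7 at -0.076, Psmb2 at -0.304, Psmc4 at -0.231, Psmg4 at -0.188, and Psme4 at 0.0332 against CON, and Psme1 at -0.254, Psmd14 at -0.165, Psmb3 at -0.0648, Psmb2 at -0.266, Psmc4 at -0.192, and Psmg4 at -0.312 against MAL. The medians of the constitutive beta subunits and the ATPases against CON were then -0.0314 and -0.0295. Without MAL-BG replicate 2, Psmd14 was at 0.037 and Psma3 at 0.045 against CON, and Psma3 at 0.046 against MAL. Psmb2 was at -0.053 without CON replicate 1 and -0.0387 without MAL-BG replicate 5 against CON, and Psmd14 at -0.025 without MAL-BG replicate 5 and -0.041 without MAL-BG replicate 6 against MAL. Without CON replicate 1 and MAL replicate 4 together, Psma3 was at 0.074 against CON and 0.027 against MAL. Over all single libraries left out, Psmd14 ranged from -0.203 to 0.0373 against CON and from -0.041 to 0.188 against MAL, Psmb2 from -0.0525 to 0.179 against CON, and Psma3 from -0.115 to 0.0448 against CON and -0.105 to 0.0459 against MAL. The cause of these turns was not tested. No paired analysis was possible because the running numbers of the columns match no sample title and so carry no pairing. Changes that were small beside their standard error were not detectable with 4, 5, and 7 libraries per group.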
